A study of Mus musculus with 12 samples.

Results

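The control baseline of the study consists of the 6 libraries that received AAV2-scramble-GFP, a virus carrying a scramble sequence and a GFP reporter, out of 12 libraries in all. It compares 3 libraries of cultured hippocampal neurons with 3 libraries of adult hippocampal CA1, and no library in it carries the knockdown of Brpf1, a chromatin regulator that the other 6 libraries target. These libraries were taken by sample label. A gene was tested when it had at least 10 counts in 3 or more of these 6 libraries, and genes of chromosomes 13 and Y were left out, which gave 15951 genes of 27179 gene IDs.

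All 6 libraries came from C57BL/6 mice. The cultures were prepared from hippocampi of embryos (the sample labels state embryonic day 18 to 19 and the culture protocol an earlier day), were infected with AAV2-scramble-GFP on day 3 in vitro (DIV 3), and the study describes its experiments at DIV 14 to 15. The CA1 tissue came from mice at 8 weeks after birth that had been injected with the virus at 4 weeks of age. The methods name the left and right CA1 as sites for the scramble and knockdown viruses, and whether single mice received both is not certain from the sources used here. Tissue, age, culture and route of infection therefore differ together between the groups, and their parts cannot be told apart. The labels name the source of all 12 libraries as neural progenitor cells, and the study describes pairs of scramble and knockdown samples, from RNA batches of cultures and from injected CA1 tissue. Which mouse or culture batch each library came from is not given in the sources used here, so whether the libraries of a group are independent is not known. The p-values weigh differences against the spread between these libraries and may not carry over to other mice or cultures.

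Hippocampal neurons in dissociated culture are taken before synapse formation and mature on a dish, in serum-free medium, beside the glia and progenitors that were carried over. The adult CA1 region holds pyramidal neurons, interneurons, astrocytes, myelinating oligodendrocytes, microglia and blood vessels. During postnatal maturation, hippocampal neurons switch off genes of migration and axon outgrowth, exchange subunits of receptors and channels, and build dendritic spines, while sterol synthesis moves largely to glia.

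Total counts were 18715979 to 28934549 in the culture libraries and 22817655 to 25898678 in the CA1 libraries. Every one of the 972 gene IDs of chromosome 13 and the 116 of chromosome Y was listed at 0 in all CA1 tables, while 532 IDs of chromosome 13 had at least 10 counts in each culture library. These genes carry no comparison. The culture libraries were more variable than the CA1 libraries, with a biological coefficient of variation, which is the relative spread between replicates, of 0.466 against 0.284. Culture replicate 2 stood apart. It held the summed level of 22 pan-neuronal genes at 5068 CPM (counts scaled to library size with TMM factors) against 11872 and 13129.6 CPM in culture replicates 1 and 3, and 10.1% of its counts were mitochondrial against 4.45 and 2.92%.

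The first question was how far the control cultures differed from the control tissue. Of the 15951 genes, 1176 were higher in CA1 (7.37% of the genes tested) and 1284 were higher in culture (8.05%), together 15.4%, at an adjusted p below 0.05 and a change of at least 2-fold (edgeR's quasi-likelihood test, Benjamini-Hochberg adjustment over all genes). A gene passing both is termed called, and all log2 differences are CA1 minus culture, ± SE of the fit. Among called genes, 462 were at least 8-fold higher in CA1 and 247 were at least 8-fold higher in culture. The first principal component carried 62.2% of the variance and placed all 3 CA1 libraries on one side, and the second carried 18.5% and placed culture replicate 2 apart from the other cultures. The groups did not overlap at all for 39.3% of the genes tested, a larger share than the test called.

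The median log2 difference over all tested genes was -0.05. When the libraries were instead scaled so that the pan-neuronal genes matched, this median moved to -0.71 and the split of calls became 459 higher in CA1 and 1512 higher in culture, 23.3% against 47.8% of calls in the direction of CA1. No gene named here as called changed its sign under that scaling, although some lost their call. Leaving out CA1 replicate 1, 2 or 3 lowered the calls from 2460 to 1322, 1528 and 1175, and leaving out culture replicate 2 gave 2788. Without CA1 replicate 1, 2 or 3, the genes called higher in culture numbered 606, 775 and 514 and those called higher in CA1 716, 753 and 661. Counts of list members without a library, given below, are to be read beside these totals.

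Genes of myelin and microglia were far higher in the tissue. Of 20 genes of myelinating oligodendrocytes, 18 were called higher in CA1 and none higher in culture, with a median log2 difference of 5.13. Mobp, a structural protein of compact myelin, stood at 0.158, 1.33 and 2.12 CPM in culture and 417, 656 and 734 CPM in CA1 (log2 difference 9.01 ± 0.84, adjusted p = 0.00096, edgeR). Mog, a myelin surface protein, stood at 3.31, 2.69 and 1.34 CPM in culture and 107, 103 and 115 CPM in CA1 (log2 difference 5.45 ± 0.36, adjusted p = 0.00023). Every CA1 library exceeded every culture library by a wide margin for both genes. Fa2h (3.20 ± 1.02) and Myrf (1.08 ± 0.95), a lipid hydroxylase and the transcription factor of myelin genes, did not pass the test. Klk6, a myelin-associated protease, had no count in any culture library and 1.64 to 8.77 CPM in CA1, at least 31.9-fold higher than a floor of 3 counts per library in culture.

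**Figure D1:**
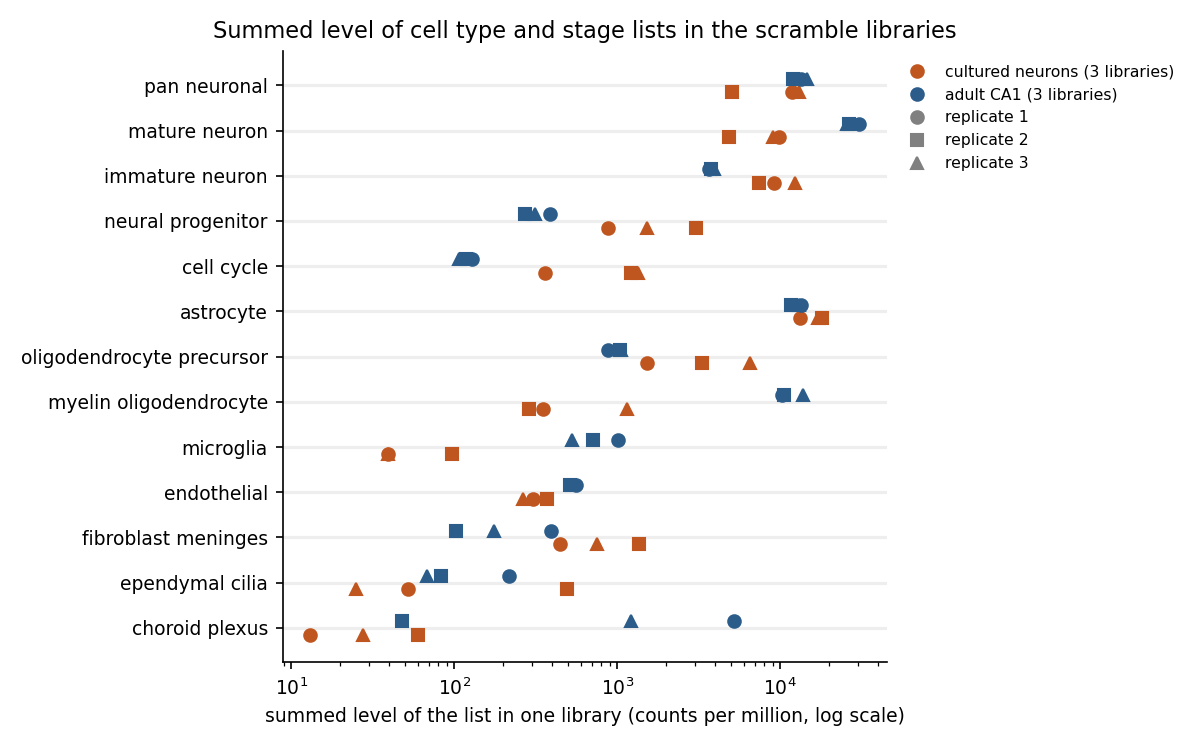
Summed level of 13 gene lists in each scramble library, in CPM on a log scale, with culture libraries in orange and CA1 libraries in blue and a symbol for each replicate. Myelin, microglia and mature neuron lists were higher in all 3 CA1 libraries, cell cycle, progenitor and immature neuron lists were higher in all 3 culture libraries, and culture replicate 2 stood low for pan-neuronal genes and high for cilia genes.

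Microglia genes followed the same direction. Of 23 tested members, 20 were called higher in CA1, with a median of 5.48. Cx3cr1, the fractalkine receptor, stood at 0.276, 1.39 and 0 CPM in culture and 50.5, 48.4 and 40.1 CPM in CA1 (log2 difference 6.23 ± 0.85, adjusted p = 0.0037), and Csf1r, the receptor on which microglia depend for survival, stood at 2.25, 2.76 and 0.486 CPM in culture and 153, 114 and 70.3 CPM in CA1. Siglech had no count in culture and 9.70 to 15.7 CPM in CA1, at least 99.9-fold higher than that floor. Counts of these genes were low in culture but not absent: 4, 1 and 9 of the 23 members were at 0 in culture replicates 1, 2 and 3, and culture replicate 2 held the highest sum among the cultures (39.3, 97.2 and 39.4 CPM in culture against 1018, 713 and 528 CPM in CA1). In bulk RNA, fewer cells of a type and less RNA per cell cannot be told apart, here and for every cell type below.

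Endothelial genes were called higher in CA1 for 15 of 20 members, with a median of 4.91. The summed level of the list differed less, at 303, 372 and 264 CPM in culture and 560, 517 and 525 CPM in CA1. Cldn5, a tight junction protein of the blood-brain barrier, stood at 1.26, 0.232 and 0 CPM in culture and 41.1, 35.5 and 42.1 CPM in CA1 (log2 difference 6.23 ± 0.85, adjusted p = 0.0037), and Ly6a, a surface antigen of brain endothelium, at 0.0788, 0.0664 and 0 CPM in culture and 51.2, 31.9 and 24.03 CPM in CA1. The 2 members called higher in culture, Slc16a1 (-1.01 ± 0.25) and Slco1c1 (-1.25 ± 0.28), transport lactate and thyroid hormone, and astrocytes are known to use both. The culture count was 1 without culture replicate 1, 1 without culture replicate 2, 1 without culture replicate 3, 1 without CA1 replicate 1, 0 without CA1 replicate 2 and 0 without CA1 replicate 3. Of 13 tested genes of mural cells, which include pericytes, 4 were called higher in CA1 and 1 higher in culture, with a median of 0.06. The culture count was 0 without culture replicate 3, 0 without CA1 replicate 1, 0 without CA1 replicate 2 and 0 without CA1 replicate 3. Kcnj8, a potassium channel subunit, was 0, 0.0996 and 0 CPM in culture and 4.44, 3.52 and 5.51 CPM in CA1, called higher in CA1, as was Abcc9 (5.17 ± 0.78). Pdgfrb, a receptor that pericytes share with fibroblasts, was 20.2, 31.4 and 11.5 CPM in culture and 20.7, 24.5 and 20.8 CPM in CA1 (log2 difference 0.06 ± 0.35) and did not pass the test.

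Choroid plexus genes varied widely among the CA1 libraries. Ttr, the transthyretin of choroid plexus epithelium, stood at 4790.0, 5.4 and 1101 CPM in CA1 replicates 1, 2 and 3, against 3.47, 28.1 and 19.4 CPM in culture, so that CA1 replicate 2 lay within the culture range. The list was called higher in CA1 for 7 of 13 members, and for 3 without culture replicate 1, 2 without culture replicate 3, 2 without CA1 replicate 1 and 2 without CA1 replicate 3. Klotho (Kl), which renal and choroid epithelia express, stood at 0.473, 1.46 and 1.15 CPM in culture and 80.2, 27.8 and 33.5 CPM in CA1, without overlap between the groups. Whether choroid tissue entered the dissections was not tested.

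Genes of dividing cells were higher in culture. Of 24 cell cycle genes, 23 were called higher in culture and none higher in CA1, with a median of -3.60, and all 24 had a fitted difference below 0. Top2a, the topoisomerase of mitotic chromosomes, stood at 40.3, 156 and 264 CPM in culture and 2.29, 3.44 and 0.582 CPM in CA1 (log2 difference -6.19 ± 0.87, adjusted p = 0.0039), and Mki67, the source of the Ki-67 proliferation antigen, stood at 34.2, 144 and 199 CPM in culture and 2.52, 5.32 and 1.86 CPM in CA1 (log2 difference -5.27 ± 0.73, adjusted p = 0.0037). Culture replicate 1 was the lowest of the cultures for both, and still above all CA1 libraries. The one member that did not pass was Pcna, a clamp that also serves DNA repair (45.3, 110.2 and 66.7 CPM in culture and 50.8, 41.8 and 50.7 CPM in CA1). Leaving out culture replicate 1, 2 or 3 gave 23, 21 and 20 of the list called higher in culture, and leaving out CA1 replicate 1, 2 or 3 gave 19, 19 and 18. Which cells held these RNAs was not tested.

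Promoters of cell cycle genes are known to carry a CCAAT box, bound by NF-Y, and a cell cycle homology region (CHR), through which repressor complexes silence them in resting cells. The letters were searched in RefSeq promoter windows of build GRCm38.p6, from 250 bases before to 50 after the start, and 21 of the 24 tested members had a window. CCAAT, on either strand, was present for 18 of these 21 (85.7%), against 42.7% of the 11811 tested genes with a window. TTTGAA, the CHR letters, on either strand, was present for 12 of 21 (57.1%) against 14.2%. Both were present for 12 members, against 7.02% of the tested genes. Genes with several start sites had several windows and counted once if any window held the letters. These are matches of letters and no measure of binding. Both motifs lie in the stretch around the start for 8 members, and 4 of these stretches are shown as examples, chosen after the matches were seen, with matches to either motif on either strand in capitals.
Cdk1: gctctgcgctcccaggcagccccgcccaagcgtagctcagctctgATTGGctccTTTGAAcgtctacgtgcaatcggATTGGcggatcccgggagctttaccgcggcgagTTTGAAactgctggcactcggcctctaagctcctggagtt
Ccnb2: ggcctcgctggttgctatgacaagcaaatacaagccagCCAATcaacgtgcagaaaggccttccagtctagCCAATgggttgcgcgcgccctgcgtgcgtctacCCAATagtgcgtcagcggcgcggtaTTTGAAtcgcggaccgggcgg
Top2a: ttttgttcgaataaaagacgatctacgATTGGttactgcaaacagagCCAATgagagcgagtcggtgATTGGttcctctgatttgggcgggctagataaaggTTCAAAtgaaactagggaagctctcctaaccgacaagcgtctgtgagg
Ube2c: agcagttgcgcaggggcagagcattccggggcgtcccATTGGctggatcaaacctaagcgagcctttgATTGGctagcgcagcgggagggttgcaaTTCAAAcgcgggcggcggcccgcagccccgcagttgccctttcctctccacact
The stretch shown for Cdk1, the kinase that drives mitosis, spans chr10:69352888-69353037, minus strand. That of Ccnb2, a cyclin that activates it, spans chr9:70421530-70421679, minus strand. That of Top2a spans chr11:99024165-99024314, minus strand. That of Ube2c, a ubiquitin-conjugating enzyme that ends mitosis, spans chr2:164769804-164769953, plus strand. The 4 genes moved together: Cdk1 stood at 5.99, 24.5 and 26.9 CPM in culture and 1.33, 0.64 and 0.349 CPM in CA1, Ccnb2 at 2.64, 10.9 and 11.8 CPM in culture and 1.01, 0.961 and 0.427 CPM in CA1 and Ube2c at 7.68, 35.7 and 37.3 CPM in culture and 1.65, 1.48 and 0.699 CPM in CA1, all called higher in culture. The same search for a sterol element (TCACNCCAC) in 18 sterol gene windows found 0, and for an amino acid response element (TGATGNAAT) in 20 stress gene windows found 1, against 1.41% and 0.576% of tested genes.

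Many progenitor and glial precursor genes were also called higher in culture. Of 18 neural progenitor genes, 10 were called higher in culture and none higher in CA1, and 6 without CA1 replicate 1, 6 without CA1 replicate 2 and 6 without CA1 replicate 3. Nes, the intermediate filament of radial glia, stood at 60.3, 269 and 181 CPM in culture and 13.98, 10.2 and 8.5 CPM in CA1 (log2 difference -3.97 ± 0.54, adjusted p = 0.0037), and Fabp7, a fatty acid carrier of radial glia, at 164, 1003 and 568 CPM in culture and 24.4, 11.01 and 20.3 CPM in CA1. Both were highest in culture replicate 2. Eomes, the factor of intermediate progenitors of the cortex, was low everywhere at 2.48, 4.08 and 0.182 CPM in culture and 6.05, 4.44 and 0.349 CPM in CA1 and did not pass the test.

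Oligodendrocyte precursor genes went against the myelin genes of the same lineage. 7 of 16 were called higher in culture and 1, Matn4, higher in CA1, with a median of -2.09. Without culture replicate 3 the median was closer to 0, at -1.0034, and the CA1 count was 2. Pdgfra, the growth factor receptor of precursors, stood at 142, 365 and 824 CPM in culture and 33.95, 55.9 and 33.3 CPM in CA1 (log2 difference -3.43 ± 0.62, adjusted p = 0.0086), and Olig2, the lineage factor, at 86.7, 305 and 458 CPM in culture and 37.8, 41.4 and 47.7 CPM in CA1 (log2 difference -2.74 ± 0.54, adjusted p = 0.012). Gpr17, a receptor of cells about to differentiate, ranged from 9.56 to 562 CPM among the cultures and overlapped the CA1 libraries. Culture replicate 3, the highest for precursors, was also the culture with the most Mbp, a major myelin protein (135, 37.2 and 420.0 CPM in culture and 5734, 4911 and 7236 CPM in CA1).

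Astrocyte genes had overlapping summed levels, 13269, 18071 and 17083 CPM in culture and 13438, 11609 and 12998 CPM in CA1, and single members moved both ways (4 called higher in CA1 and 3 in culture, 2 and 6 when scaled to the pan-neuronal genes). The CA1 count was 2 without CA1 replicate 1 and 2 without CA1 replicate 3. Those called higher in culture were Slc1a3 (-1.66 ± 0.32), the glutamate transporter GLAST that radial glia also use, Sox9 (-2.21 ± 0.30), a gliogenic factor, and Aldh1l1 (-1.30 ± 0.26), a folate enzyme. Those called higher in CA1 were Gjb6 (3.64 ± 0.53), the gap junction protein connexin 30, S100b (2.35 ± 0.52), a calcium-binding protein, Ntsr2 (2.16 ± 0.36), a neurotensin receptor, and Agt (2.15 ± 0.55), angiotensinogen. Slc1a2, the main glutamate transporter of adult astrocytes, stood at 2160.1, 1493 and 3346 CPM in culture and 1710.2, 2777 and 2813 CPM in CA1 and overlapped. Gfap, the filament of reactive astrocytes, stood at 2675, 3646 and 74.1 CPM in culture and 790.3, 505 and 569 CPM in CA1, with culture replicates 1 and 2 above and replicate 3 below every CA1 library. The C3 complement gene had the same scatter at 12.1, 209.6 and 0.789 CPM in culture against 10.3, 4.04 and 2.06 CPM in CA1.

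Fibroblast genes of the meninges were called higher in culture for 5 of 14 members (2 without CA1 replicate 3, and 10 when scaled to the pan-neuronal genes). Col3a1, a fibrillar collagen, stood at 20.4, 151 and 34.7 CPM in culture and 3.07, 1.24 and 1.94 CPM in CA1, and Col1a1 at 25.9, 108 and 48.1 CPM in culture and 8.25, 4.2 and 6.02 CPM in CA1, both highest in culture replicate 2. The median of the list moved from -1.28 to -0.26 without that library. Mgp, a matrix protein of vessel walls, was the one member called higher in CA1 (3.52 ± 0.86), where the count was 0 without culture replicate 1, 2 without culture replicate 2, 0 without culture replicate 3, 0 without CA1 replicate 1 and 0 without CA1 replicate 3.

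Pan-neuronal genes were set beside the 15.4% of all tested genes that were called. Of 22 pan-neuronal genes, 2 were called higher in CA1 and 1 higher in culture, with a median of 0.26, or -0.08 without culture replicate 2 and -0.13 when scaled to the list itself. The CA1 count was 1 without culture replicate 3, 0 without CA1 replicate 1, 1 without CA1 replicate 2 and 0 without CA1 replicate 3, and the culture count was 3 without culture replicate 2 and 0 without CA1 replicate 1. Scaled to the list itself, the counts were 1 and 3. Rbfox3, the nuclear antigen NeuN, stood at 126, 72.8 and 149 CPM in culture and 369.7, 286 and 269.8 CPM in CA1 (log2 difference 1.41 ± 0.31, adjusted p = 0.018), and Snap25, a fusion protein of synaptic vesicles, at 759.8, 162 and 544 CPM in culture and 1495, 1583 and 2579 CPM in CA1 (log2 difference 1.95 ± 0.55, adjusted p = 0.043). Gap43, a growth cone protein, was the member called higher in culture, at 486, 224 and 619.5 CPM in culture and 88.1, 61.8 and 124.5 CPM in CA1. Tubb3, the neuronal tubulin, stood at 612, 346 and 882 CPM in culture and 270.4, 215 and 340.3 CPM in CA1 (adjusted p = 0.067) and did not pass the test.

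Lists of hippocampal subfields were set between the CA1 tissue and the cultures, which were made from whole hippocampus. Among 15 genes of CA1 pyramidal cells, 5 were called higher in CA1: Fibcd1, a marker of dorsal CA1, at 14.6, 4.61 and 9.29 CPM in culture and 211, 142 and 73.8 CPM in CA1 (log2 difference 3.91 ± 0.53, adjusted p = 0.0037), Lefty1 (6.91 ± 0.88), a secreted inhibitor of nodal signalling, Spink8 (4.51 ± 0.58), a protease inhibitor, Itpka (2.72 ± 0.35), an inositol kinase of spines, and Pou3f1 (2.49 ± 0.34), a POU factor. Zbtb20 (-1.79 ± 0.42), a factor that specifies CA1 in development, and Dcn (-1.98 ± 0.52), a proteoglycan shared with fibroblasts, were called higher in culture, where the count was 1 without culture replicate 1, 1 without culture replicate 3, 1 without CA1 replicate 1 and 0 without CA1 replicate 3. Wfs1, an endoplasmic reticulum protein of CA1 cells, stood at 75.7, 38.6 and 72.4 CPM in culture and 195, 184 and 68.3 CPM in CA1, and CA1 replicate 3 lay within the culture range.

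Granule cell genes of the dentate gyrus were also called higher in the CA1 libraries, for 8 of 14 members (5 when scaled to the pan-neuronal genes), and 1, Marcks (-1.72 ± 0.29), a membrane-bound substrate of protein kinase C, was called higher in culture. C1ql2, a synaptic organizer of mossy fibres, stood at 11.7, 9.96 and 8.07 CPM in culture and 176, 155 and 149.9 CPM in CA1 (log2 difference 4.01 ± 0.25, adjusted p = 0.00021), and Lct, the lactase gene used as a granule cell marker in mouse, at 0.0788, 0.564 and 0.0607 CPM in culture and 75.9, 98.99 and 50.7 CPM in CA1. Prox1, the factor that defines granule cells, was 25.4, 66.4 and 14.6 CPM in culture and 13.1, 72.6 and 42.8 CPM in CA1 and overlapped. The CA3 and CA2 list gave 4 of 15 called higher in CA1 (2 without culture replicate 3, 2 without CA1 replicate 1, 2 without CA1 replicate 2 and 2 without CA1 replicate 3, and 1 when scaled to the pan-neuronal genes), led by Bok, a regulator of apoptosis, at 17.2, 18.6 and 17.5 CPM in culture and 159.9, 94.2 and 169.8 CPM in CA1. Whether tissue next to CA1 entered the dissections was not tested. In CA1 replicate 3 the summed level of 10 thalamus genes was 473 CPM against 131 CPM in CA1 replicate 1 and 149.95 CPM in CA1 replicate 2.

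Interneuron genes were unequal within the list. Its counts are read beside the 7.37% of all tested genes called higher in CA1 and the 8.05% called higher in culture. Gad1, which makes GABA, stood at 503, 75.6 and 189 CPM in culture and 232, 258 and 214 CPM in CA1, and Sst, somatostatin, at 313, 4.75 and 175 CPM in culture and 243, 159 and 76.6 CPM in CA1. Neither passed the test, and culture replicate 2 was the lowest culture for both. Pvalb, parvalbumin of fast-spiking cells, stood at 1.02, 5.38 and 0.304 CPM in culture and 33.1, 20.3 and 37.4 CPM in CA1 (log2 difference 3.72 ± 0.85, adjusted p = 0.021), and Lamp5, a marker of neurogliaform cells, at 11.4, 0.531 and 2.67 CPM in culture and 51.9, 34.9 and 46.8 CPM in CA1. Cck, a peptide of basket cells and pyramidal cells, was 140.1, 27.3 and 56.03 CPM in culture and 490.0, 298 and 345 CPM in CA1. These 3 of 26 members were called higher in CA1 (5 without culture replicate 1, 1 without culture replicate 3, 0 without CA1 replicate 1, 1 without CA1 replicate 2 and 0 without CA1 replicate 3), and Calb2, calretinin, was the 1 called higher in culture (-1.27 ± 0.37). The culture count was 0 without culture replicate 1, 6 without culture replicate 2, 0 without culture replicate 3, 0 without CA1 replicate 2 and 0 without CA1 replicate 3, and 3 when scaled to the pan-neuronal genes.

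Genes of young neurons were higher in culture. Of 29 immature neuron genes, 18 were called higher in culture and none higher in CA1, with a median of -1.70. Leaving out culture replicate 1, 2 or 3 gave counts of 17, 18 and 15, and leaving out CA1 replicate 1, 2 or 3 gave 13, 15 and 14. Dcx, doublecortin of migrating neurons, stood at 157, 189 and 321 CPM in culture and 9.16, 22.2 and 11.5 CPM in CA1 (log2 difference -3.96 ± 0.44, adjusted p = 0.0019). Dpysl3, a collapsin response mediator of growth cones, stood at 322, 271 and 645 CPM in culture and 9.35, 17.8 and 8.77 CPM in CA1 (log2 difference -5.11 ± 0.49, adjusted p = 0.00099). Cultures exceeded the tissue for both in every library. Draxin, a guidance ligand (-5.33 ± 0.72), Cd24a, a surface glycoprotein of young neurons (-3.72 ± 0.36), Sox11, a factor of young neurons (-2.21 ± 0.32), and Nnat, an imprinted proteolipid (-2.87 ± 0.40), moved the same way. Stmn1, a microtubule destabilizer, and Neurod1, a proneural factor, were among the 11 that did not pass, at 96.2, 76.1 and 129.5 CPM in culture and 68.3, 56.6 and 87.5 CPM in CA1 for Stmn1 and 23.4, 38.1 and 7.77 CPM in culture and 21.99, 28.7 and 20.8 CPM in CA1 for Neurod1.

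The mature neuron list gave the opposite. 18 of 34 members were called higher in CA1 and none higher in culture (11 without CA1 replicate 1, and 12 when scaled to the pan-neuronal genes), and all 34 fitted differences were above 0, with a median of 1.28. Camk2a, the kinase of synaptic plasticity, stood at 1212, 1173 and 1105 CPM in culture and 5368, 5171 and 4694 CPM in CA1 (log2 difference 2.13 ± 0.30, adjusted p = 0.0037). Hpca, the calcium sensor hippocalcin, stood at 229, 101 and 171 CPM in culture and 3145, 1883 and 1909.6 CPM in CA1 (log2 difference 3.79 ± 0.43, adjusted p = 0.0019). Nrgn, a calmodulin-binding protein of spines, stood at 263, 116 and 410.3 CPM in culture and 1891, 1323 and 1504 CPM in CA1. Camk2a varied little among the cultures, including replicate 2, while Hpca and Nrgn were lowest in replicate 2. Ddn (3.18 ± 0.43), a dendrite protein, Chn1 (3.14 ± 0.40), a Rac regulator, Kcnab2 (2.98 ± 0.31), a potassium channel subunit, and Ptk2b (2.97 ± 0.50), a calcium-activated tyrosine kinase, were called as well. Rasgrf1 stood at 157, 5.14 and 103 CPM in culture and 488, 559 and 434 CPM in CA1 and did not pass (adjusted p = 0.1), although the groups did not overlap, and culture replicate 2 lay far under the other cultures.

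**Figure D2:**
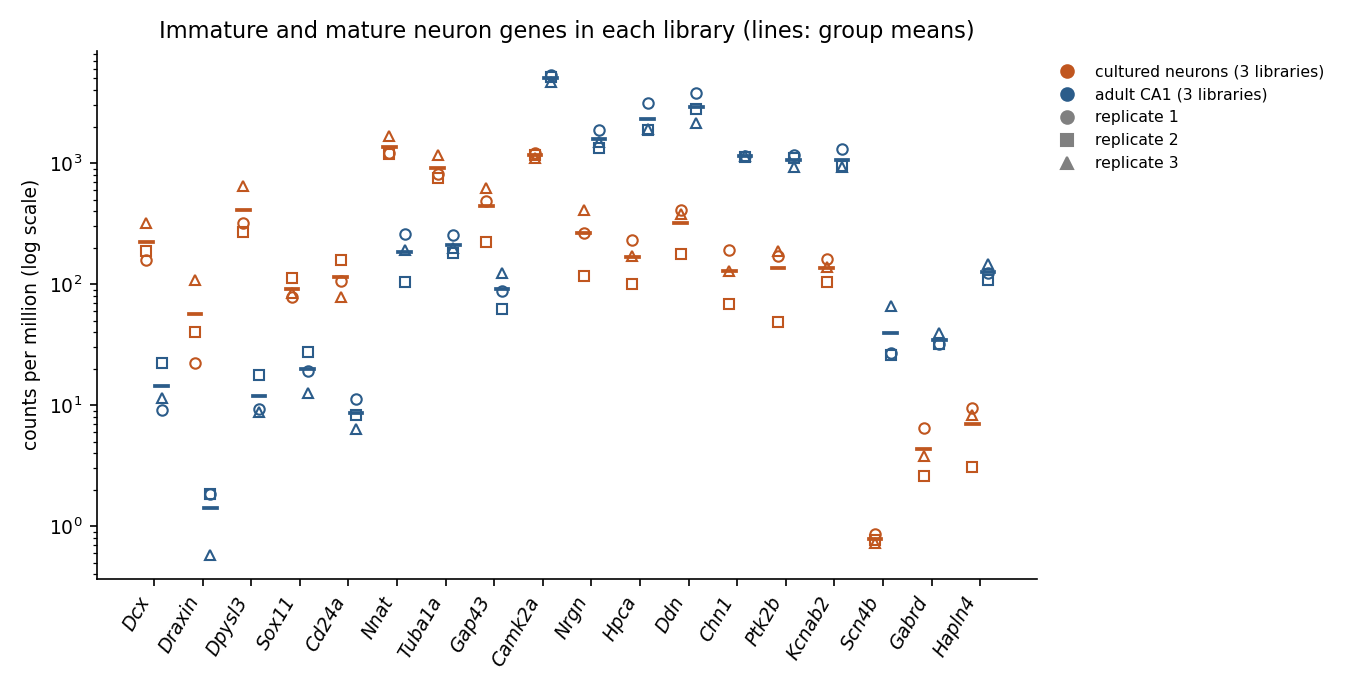
Levels of 8 genes higher in culture and 10 genes higher in CA1 in each scramble library, in CPM on a log scale, with a line at each group mean. The genes were selected for display from several lists. Scn4b and Hapln4 come from the channel and matrix lists and are not in the mature neuron list. Dcx to Gap43 lay higher in all 3 cultures, and Camk2a to Hapln4 lay higher in all 3 CA1 libraries. In the full immature and mature neuron lists, 11 of 29 and 16 of 34 genes were not called.

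Synaptic genes were counted on each side of the synapse, beside 7.37% of all tested genes called higher in CA1. On the postsynaptic side 13 of 33 genes were called higher in CA1 (median 0.87), against 5 of 35 of vesicle release (median 0.25). The difference between the 2 lists was not tested. Ppp3ca, the catalytic subunit of calcineurin, stood at 346, 206 and 250.2 CPM in culture and 1031, 1385 and 1099.9 CPM in CA1 (log2 difference 2.13 ± 0.31, adjusted p = 0.0039), and Ppp1r9b, spinophilin, at 637, 489.6 and 609 CPM in culture and 2222, 1619 and 1635 CPM in CA1 (log2 difference 1.66 ± 0.29, adjusted p = 0.0078). Dlg4, the scaffold PSD-95, stood at 588, 368 and 624 CPM in culture and 912, 796 and 774 CPM in CA1 and did not pass the test (adjusted p = 0.16). When the libraries were scaled to the pan-neuronal genes, 3 postsynaptic genes were called higher in CA1 (median 0.24), and when the trend of fold change with gene length was removed the count was 20. On the presynaptic side, Vamp1, a vesicle fusion protein of fast-firing neurons, stood at 54.3, 13.6 and 22.6 CPM in culture and 111, 106 and 229 CPM in CA1 (log2 difference 2.30 ± 0.54, adjusted p = 0.024), while its homologue Vamp2 stood at 943, 339 and 1014 CPM in culture and 968, 723 and 808 CPM in CA1 and did not pass. The presynaptic count was 3 without culture replicate 1, 1 without culture replicate 3, 2 without CA1 replicate 1, 2 without CA1 replicate 2 and 1 without CA1 replicate 3, and 3 when scaled to the pan-neuronal genes. In the same order, these fits called 1180, 929, 716, 753, 661 and 459 of all 15951 genes higher in CA1. The share of the list thus lay on both sides of that of all genes without 1 library, and above it when scaled to the pan-neuronal genes. The presynaptic median was -0.03 without culture replicate 2, 0.51 without culture replicate 1, 0.53 without culture replicate 3, 0.51 without CA1 replicate 1, 0.15 without CA1 replicate 3 and 0.03 when scaled to the pan-neuronal genes.

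Single subunits of transmitter receptors were called in opposite directions, and the counts are read against the 7.37% of all genes called higher in CA1 and the 8.05% called higher in culture. Among NMDA receptor genes, 1 of 7 was called, Grin2c, a subunit also used by astrocytes, at 12.1, 14.4 and 4.86 CPM in culture and 66.9, 78.98 and 70.96 CPM in CA1 (log2 difference 2.78 ± 0.38, adjusted p = 0.0037). None was called higher in culture, against 2 without culture replicate 2 and 2 when scaled to the pan-neuronal genes. Grin2b, the subunit of young synapses, stood at 118, 30.1 and 122 CPM in culture and 16.1, 58.8 and 19.4 CPM in CA1, and Grin2a, the subunit of mature synapses, at 29.2, 6.94 and 21.1 CPM in culture and 7.51, 61.6 and 23.7 CPM in CA1, and neither passed the test. For GABA-A receptors, Gabrd, the delta subunit of extrasynaptic receptors, stood at 6.54, 2.59 and 3.82 CPM in culture and 31.98, 32.2 and 39.2 CPM in CA1 (log2 difference 3.00 ± 0.36, adjusted p = 0.0025), and Gabrb1, a beta subunit, was called higher in culture (-1.62 ± 0.40). Of the 14 tested GABA-A genes 2 were called higher in CA1 (4 without culture replicate 1, 4 without culture replicate 2, 1 without culture replicate 3, 1 without CA1 replicate 2 and 1 without CA1 replicate 3) and 1 higher in culture (0 without culture replicate 1, 2 without culture replicate 2, 0 without culture replicate 3, 0 without CA1 replicate 1 and 0 without CA1 replicate 3). The AMPA receptor list gave 2 of 16 called higher in CA1, the auxiliary subunits Cacng8 (1.36 ± 0.29) and Cnih2 (1.05 ± 0.29), and 1 higher in culture, Cacng4 (-2.19 ± 0.33), which is also a precursor cell gene. The CA1 count of the AMPA list was 1 without culture replicate 3, 0 without CA1 replicate 1, 0 without CA1 replicate 2 and 1 without CA1 replicate 3, and 0 when scaled to the pan-neuronal genes.

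Ratios of paired genes within a library do not depend on library scaling. They were taken as counts per kilobase of gene length, for 8 pairs, with exact two-sided permutation tests in which 3 against 3 libraries cannot give a p below 0.1. The NMDA receptor ratio Grin2a over Grin2b was 0.411, 0.383 and 0.288 in culture and 0.778, 1.75 and 2.03 in CA1 (log2 difference 1.98, exact permutation p = 0.1, adjusted p = 0.2 over the 8 pairs). The sodium channel ratio Scn1a over Scn3a was 1.27, 0.43 and 0.584 in culture and 2.01, 1.57 and 3.35 in CA1 (log2 difference 1.69), and Camk2a over Camk2b was 1.25, 1.73 and 1.18 in culture and 2.53, 2.4 and 2.5 in CA1. In these 3 pairs the member of the mature brain took a larger share in every CA1 library than in any culture, at the smallest exact permutation p the design allows (p = 0.1, adjusted p = 0.2).

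A further 4 ratios overlapped between the groups. Slc12a5 over Slc12a2, the chloride exporter KCC2 over the importer NKCC1, was 9.72, 3.23 and 7.19 in culture and 9.47, 6.41 and 5.4 in CA1 (exact permutation p = 0.9). Dlg4 over Dlg3, PSD-95 over SAP102, was 6.51, 8.16 and 8.16 in culture and 7.63, 5.22 and 6.65 in CA1 (exact permutation p = 0.3). Slc17a7 over Slc17a6, the vesicular glutamate transporters VGLUT1 over VGLUT2, ranged from 37.3 to 239 in CA1 and from 40.1 to 156 in culture (exact permutation p = 0.8). Gria1 over Gria2, which encode AMPA receptor subunits, was 1.25, 1.02 and 2.01 in culture and 3.14, 1.78 and 2.11 in CA1 (exact permutation p = 0.2). CA1 replicate 3 held the lowest VGLUT1 to VGLUT2 ratio of all 6 libraries and was the library with the highest thalamus sum.

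**Figure D3:**
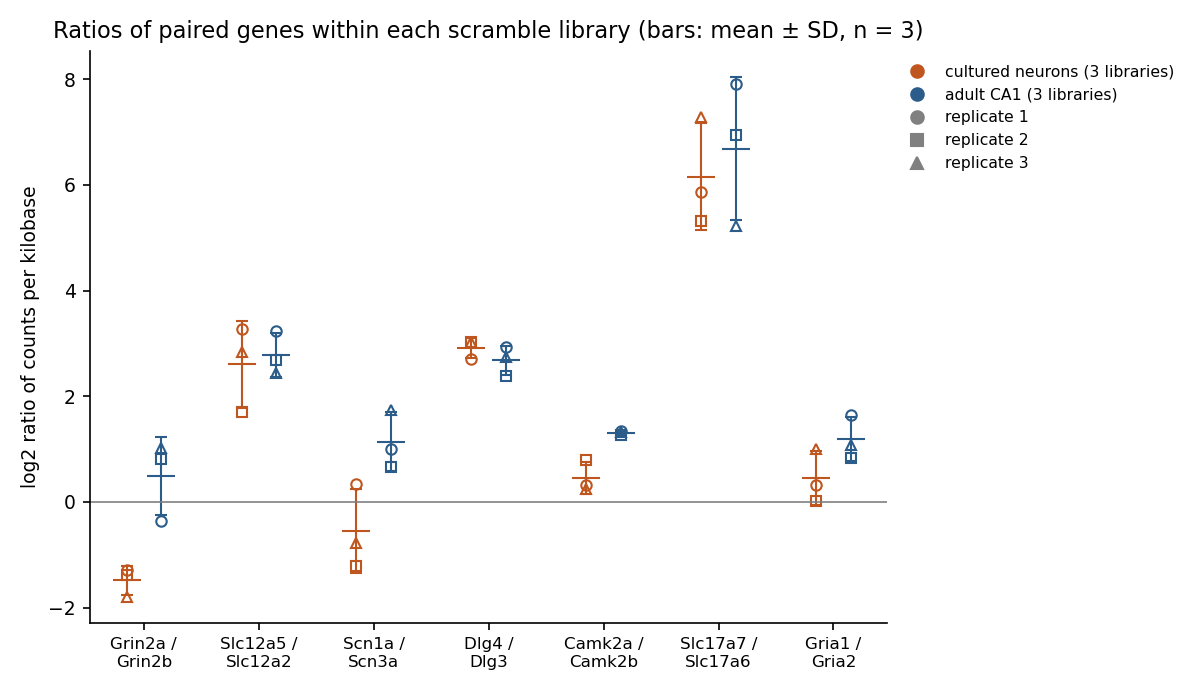
Log2 ratio of counts per kilobase for 7 gene pairs in each scramble library, with group means and SD (n = 3). Grin2a over Grin2b, Scn1a over Scn3a and Camk2a over Camk2b were higher in every CA1 library than in any culture, and the other 4 pairs overlapped.

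Ion channel genes added a few large differences. Scn4b, a sodium channel beta subunit of fast-firing neurons, stood at 0.867, 0.763 and 0.728 CPM in culture and 27.2, 26.1 and 66.3 CPM in CA1 (log2 difference 5.65 ± 0.47, adjusted p = 0.00065). Of 39 potassium and HCN channel genes, 11 were called higher in CA1 and 2 higher in culture (for the former, 6 without CA1 replicate 2 and 7 without CA1 replicate 3, and 3 when scaled to the pan-neuronal genes). Kcnab2, Kcns2 (2.24 ± 0.46) and Kcnab1 (2.12 ± 0.41) led the former, and Hcn4 (-1.98 ± 0.50), a pacemaker channel, and Kcnd3 (-1.04 ± 0.28), an A-type channel, made up the latter, whose count was 0 without culture replicate 1, 0 without culture replicate 3, 0 without CA1 replicate 1, 0 without CA1 replicate 2 and 1 without CA1 replicate 3. Car7, a carbonic anhydrase that sustains depolarizing GABA responses, stood at 2.48, 0.299 and 3.04 CPM in culture and 17.8, 18.7 and 14.9 CPM in CA1 (log2 difference 3.16 ± 0.70, adjusted p = 0.019).

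**Figure D4:**
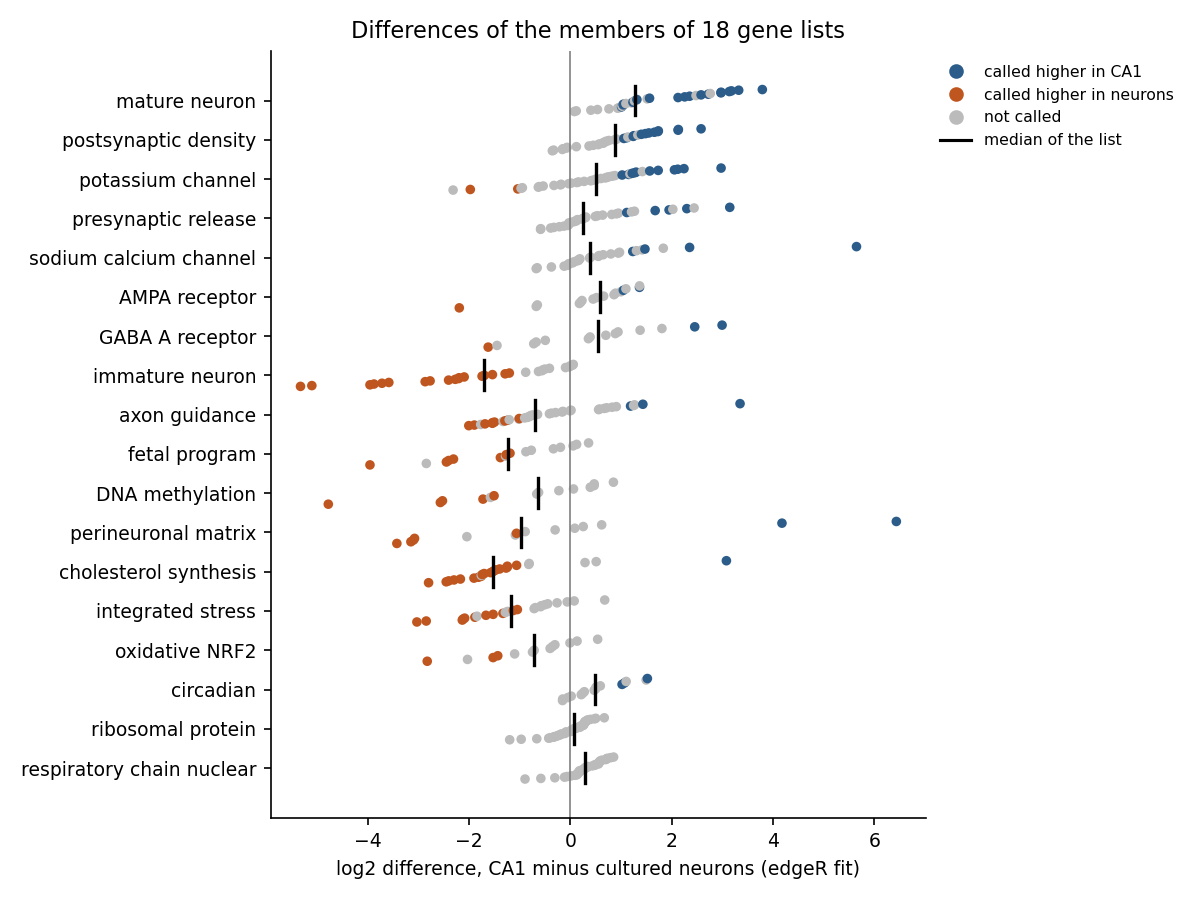
Fitted log2 difference (CA1 minus culture) of every tested member of 18 lists of neuronal maturation and culture condition, with called genes in colour and a bar at each list's median. Medians were 1.28 for mature neuron, -1.70 for immature neuron and -1.53 for cholesterol synthesis, beside -0.05 for all tested genes.

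Matrix genes moved in both directions. Tnc, tenascin C of the embryonic matrix, stood at 62.9, 92.05 and 62.2 CPM in culture and 7.01, 6.12 and 7.03 CPM in CA1 (log2 difference -3.43 ± 0.25, adjusted p = 0.00036), and Ncan, the juvenile proteoglycan neurocan, at 659, 1014 and 2415 CPM in culture and 145, 184 and 155 CPM in CA1 (log2 difference -3.08 ± 0.50, adjusted p = 0.0058). In the other direction, Hapln4, a link protein of perineuronal nets, stood at 9.57, 3.09 and 8.38 CPM in culture and 124, 108 and 148 CPM in CA1 (log2 difference 4.18 ± 0.43, adjusted p = 0.0014), and Hapln2, a link protein of nodes of Ranvier, at 0.945, 0.398 and 0.121 CPM in culture and 29.4, 41.6 and 63.04 CPM in CA1. Acan, aggrecan of perineuronal nets, was 27.02, 3.19 and 10.02 CPM in culture and 7.42, 9.57 and 4.66 CPM in CA1 and overlapped. In all 5 of 14 matrix genes were called higher in culture and 2 higher in CA1. The culture count was 3 without CA1 replicate 1 and 3 without CA1 replicate 3.

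Axon guidance genes were called higher in culture for 9 of 38 members and higher in CA1 for 3. Plxna3, a semaphorin receptor, stood at 80.6, 87.7 and 67.99 CPM in culture and 15.5, 27.7 and 15.6 CPM in CA1 (log2 difference -2.01 ± 0.29, adjusted p = 0.0038), and the log2 difference of Efnb2, an ephrin ligand, was -1.90 ± 0.29. Epha7, an ephrin receptor, went the other way at 29.97, 17.3 and 15.7 CPM in culture and 189.7, 271 and 183 CPM in CA1 (log2 difference 3.35 ± 0.34, adjusted p = 0.0011), as did Epha4 (1.43 ± 0.35). The culture count was 4 without culture replicate 3, 4 without CA1 replicate 1 and 5 without CA1 replicate 3, and the CA1 count was 1 without culture replicate 3, 1 without CA1 replicate 2 and 1 without CA1 replicate 3, and 1 when scaled to the pan-neuronal genes.

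Genes of the fetal program, among them imprinted growth genes, were called higher in culture for 7 of 16 members (2 without CA1 replicate 1, 4 without CA1 replicate 2 and 3 without CA1 replicate 3). Dcx is counted both here and in the immature neuron list. Plagl1, an imprinted zinc finger gene, stood at 71.5, 55.4 and 31.7 CPM in culture and 6.51, 11.05 and 14.4 CPM in CA1 (log2 difference -2.31 ± 0.39, adjusted p = 0.0069), and Igf2bp3, an RNA-binding protein of fetal tissue, at 8.31, 11.6 and 30.2 CPM in culture and 1.28, 4.88 and 2.95 CPM in CA1. Lin28b, the let-7 inhibitor, was low throughout at 3.27, 0.0996 and 0.304 CPM in culture and 0.367, 1.16 and 2.48 CPM in CA1 and did not pass.

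Enzymes of DNA methylation were called higher in culture for 5 of 14 members (3 without CA1 replicate 1 and 3 without CA1 replicate 3). Uhrf1, which recruits the maintenance methyltransferase during replication, stood at 10.6, 56.2 and 54.1 CPM in culture and 2.06, 1.56 and 0.776 CPM in CA1 (log2 difference -4.78 ± 0.69, adjusted p = 0.0041). Dnmt3a, the de novo methyltransferase of postnatal neurons, stood at 280.1, 210.2 and 503 CPM in culture and 37.9, 78.98 and 55.4 CPM in CA1 (log2 difference -2.53 ± 0.41, adjusted p = 0.0061), and Tet1, which oxidizes methylcytosine, at 44.2, 41.8 and 68.7 CPM in culture and 4.03, 12.4 and 9.55 CPM in CA1. The complex that Brpf1 belongs to gave 0 and 0 calls (edgeR) among 9 genes in CA1 and in culture, with 1 gene at an unadjusted p below 0.05, 1 called by DESeq2 and 0 by limma-voom. The culture count was 1 without culture replicate 1. Brpf1 itself stood at 23.9, 54.9 and 39.03 CPM in culture and 40.9, 47.1 and 35.5 CPM in CA1 (log2 difference 0.07 ± 0.31) and Kat6a, its acetyltransferase partner, at 84.4, 122 and 208 CPM in culture and 36.7, 78.02 and 56.9 CPM in CA1 (edgeR adjusted p = 0.058).

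Most genes of sterol synthesis were called higher in culture. Of 25 genes of cholesterol synthesis and transport, 19 were called higher in culture and 1 higher in CA1, with a median of -1.53. The culture count was 18, 17 and 18 on leaving out culture replicate 1, 2 or 3, and 13, 16 and 16 on leaving out CA1 replicate 1, 2 or 3. The CA1 count was 0 without culture replicate 1, 0 without culture replicate 3, 0 without CA1 replicate 1 and 0 without CA1 replicate 2. Sqle, squalene epoxidase, stood at 203, 287 and 252 CPM in culture and 41.9, 43.4 and 50.1 CPM in CA1 (log2 difference -2.45 ± 0.24, adjusted p = 0.001). Lss, which closes the sterol ring, stood at 60.1, 88.96 and 58.5 CPM in culture and 10.3, 17.4 and 14.48 CPM in CA1 (log2 difference -2.30 ± 0.29, adjusted p = 0.0027). No CA1 library reached any culture library for either gene. The log2 differences ran from Acat2 (-1.74 ± 0.22) at the entry, through Mvd (-1.90 ± 0.26) and Fdft1 (-1.40 ± 0.24), to Dhcr7 (-1.76 ± 0.24), which acts late in synthesis. Stard4 (-2.80 ± 0.44), which moves sterol inside cells, and Abca1 (-2.40 ± 0.43), which exports it, were higher in culture too. Ch25h, which makes 25-hydroxycholesterol and is used by macrophages, was the member called higher in CA1, at 0.315, 0.398 and 0.0607 CPM in culture and 3.48, 2.52 and 0.97 CPM in CA1. Members that were not called, named after their values were seen, included the enzymes Pmvk (-0.81 ± 0.21, less than 2-fold) and Ebp (0.51 ± 0.24), Cyp46a1 (0.29 ± 0.30), which makes 24-hydroxycholesterol in neurons, and Srebf2 (-0.82 ± 0.25), the transcription factor of the pathway. These levels come from all cells of a library, and the share of astrocytes, precursors and neurons in them was not tested.

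**Figure D5:**
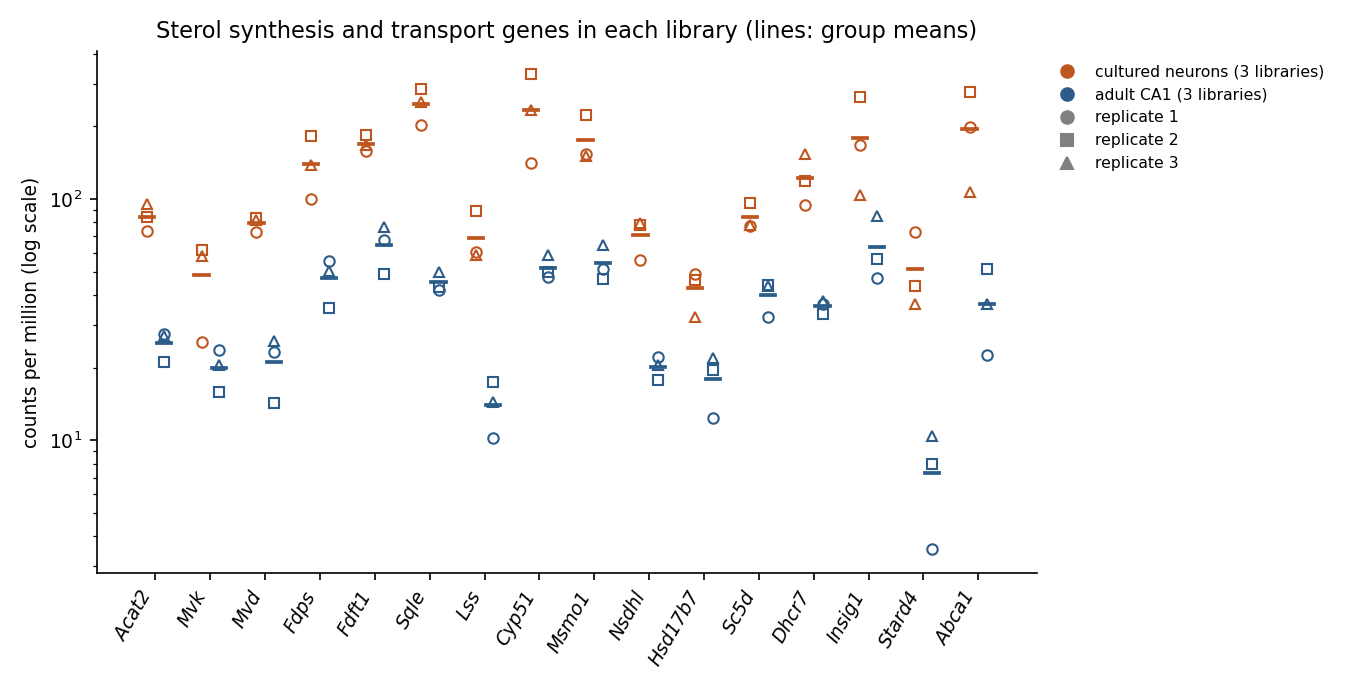
Levels of 16 genes of sterol synthesis and transport, taken from those called higher in culture, in each scramble library, in CPM on a log scale, with a line at each group mean. For all 16 genes the 3 culture libraries lay above the 3 CA1 libraries.

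Genes of the integrated stress response and of amino acid supply were called higher in culture for 11 of 24 members, with a median of -1.18, but 7 without culture replicate 3, 5 without CA1 replicate 1, 4 without CA1 replicate 2 and 4 without CA1 replicate 3. Slc7a5, the large neutral amino acid carrier, stood at 193, 311 and 279 CPM in culture and 54.5, 67.9 and 57.8 CPM in CA1 (log2 difference -2.12 ± 0.26, adjusted p = 0.0027), Aldh1l2, a mitochondrial folate enzyme, at 43.6, 38.1 and 36.6 CPM in culture and 3.76, 5.6 and 7.03 CPM in CA1 (log2 difference -2.85 ± 0.29, adjusted p = 0.0011), and Sesn2, sestrin 2, at 45.7, 75.6 and 76.8 CPM in culture and 18.6, 14.1 and 13.9 CPM in CA1 (log2 difference -2.09 ± 0.28, adjusted p = 0.003). Other members did not pass: Ddit3, the factor CHOP, stood at 31.7, 17.9 and 18.4 CPM in culture and 26.2, 16.3 and 22.7 CPM in CA1, and Asns, asparagine synthetase, at 119.6, 82.98 and 112 CPM in culture and 98.9, 79.5 and 83.3 CPM in CA1. Of the oxidative stress list 3 of 13 were called higher in culture (1 without CA1 replicate 1, 1 without CA1 replicate 2 and 1 without CA1 replicate 3, and 6 when scaled to the pan-neuronal genes), among them Hmox1, heme oxygenase, at 33.5, 76.7 and 30.6 CPM in culture and 8.61, 5.72 and 5.51 CPM in CA1 (log2 difference -2.83 ± 0.41, adjusted p = 0.0041), while Nqo1, a quinone reductase, was 1.34, 8.46 and 3.1 CPM in culture and 7.51, 3.68 and 7.61 CPM in CA1. Cdkn1a, the cell cycle inhibitor p21, stood at 92.4, 71.001 and 66.7 CPM in culture and 16.3, 10.2 and 6.06 CPM in CA1 (log2 difference -2.82 ± 0.37, adjusted p = 0.0031). It was named as a member of the glucocorticoid response list.

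Vegfa, the vessel growth factor that hypoxia induces, stood at 335, 116 and 96.9 CPM in culture and 45.4, 49.4 and 46.6 CPM in CA1 (log2 difference -1.96 ± 0.46, adjusted p = 0.024), and was highest in culture replicate 1. Ldha, lactate dehydrogenase, stood at 857, 273 and 828 CPM in culture and 297, 206 and 229 CPM in CA1 (adjusted p = 0.056). In all 3 of 25 genes of hypoxia and glycolysis were called higher in culture, a share near the 8.05% of all genes, and 9 without culture replicate 2, 1 without CA1 replicate 1 and 0 without CA1 replicate 3, and 5 when scaled to the pan-neuronal genes.

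Calls among immediate early genes of neuronal activity lay in both directions, beside 7.37% of all genes called higher in CA1 and 8.05% called higher in culture. Arc is counted both here and in the mature neuron list. Arc, a synaptic plasticity protein, stood at 44.3, 8.17 and 18.3 CPM in culture and 437, 102 and 169 CPM in CA1 (log2 difference 3.32 ± 0.73, adjusted p = 0.019), Fosl2, an AP-1 component, was called higher in culture (-2.07 ± 0.61) although its groups overlapped, and Fos ranged from 8.92 to 126 CPM in culture and from 3.84 to 29.0 CPM in CA1. The counts of 2 and 2 of 23 called higher in CA1 and in culture turned on single libraries: the former was 8 without culture replicate 1, 0 without culture replicate 3, 0 without CA1 replicate 1, 1 without CA1 replicate 2 and 1 without CA1 replicate 3, and the latter was 0 without culture replicate 1, 0 without culture replicate 3, 0 without CA1 replicate 1, 0 without CA1 replicate 2 and 0 without CA1 replicate 3.

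Some hormone and clock genes were called higher in the tissue. Dbp, an output gene of the circadian clock, stood at 24.03, 20.1 and 11.2 CPM in culture and 53.8, 41.3 and 63.9 CPM in CA1 (log2 difference 1.52 ± 0.32, adjusted p = 0.015), and Tef, a related factor, at 167, 182 and 175 CPM in culture and 359, 369 and 335 CPM in CA1 (log2 difference 1.02 ± 0.22, adjusted p = 0.016). Of 16 clock genes 3 were called higher in CA1 and none higher in culture (1 without CA1 replicate 2 and 0 without CA1 replicate 3, and 0 when scaled to the pan-neuronal genes), and the time of day of collection is not given in the sources used here. Nr3c2, the mineralocorticoid receptor, stood at 40.6, 23.5 and 24.8 CPM in culture and 71.3, 132 and 93.6 CPM in CA1 (log2 difference 1.74 ± 0.32, adjusted p = 0.0087), and Sgk1, a kinase that corticosteroids induce, at 43.1, 19.8 and 38.5 CPM in culture and 112, 169 and 85.2 CPM in CA1 (log2 difference 1.85 ± 0.37, adjusted p = 0.012). Of 16 glucocorticoid response genes 4 were called higher in CA1 and 1, Cdkn1a, higher in culture, beside 7.37% and 8.05% of all tested genes. Without 1 library these counts were 2 to 5 and 1. Of 10 thyroid response genes 3 were called higher in CA1 and 2 higher in culture, and 1 to 3 and 1 to 2 without 1 library. Scaled to the pan-neuronal genes, the counts were 1 and 2 for either list. Dio2, the thyroid hormone activating deiodinase, was among the thyroid genes called higher in culture (-1.26 ± 0.30).

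Interferon and antigen presentation genes were variable. Their medians were 1.16 and 1.17, but 1 of 27 and 2 of 12 were called higher in CA1, beside 7.37% of all tested genes. Without culture replicate 2 the counts were 15 and 4, with medians of 2.09 and 1.81. That fit called 1440 of all 15951 genes higher in CA1. Without CA1 replicate 1 the class I median was 0.69, and scaled to the pan-neuronal genes the medians were 0.09 and 0.29. In the 6 knockdown libraries 7 interferon genes and 3 class I genes were called higher in CA1. Leaving out single libraries gave, for interferon genes, 0 without culture replicate 1, 15 without culture replicate 2, 0 without culture replicate 3, 0 without CA1 replicate 1, 0 without CA1 replicate 2 and 2 without CA1 replicate 3, and for class I genes, 4 without culture replicate 2, 1 without culture replicate 3, 1 without CA1 replicate 1 and 1 without CA1 replicate 3. B2m, the light chain of class I molecules, stood at 62.6, 129.9 and 34.1 CPM in culture and 309, 148 and 90.6 CPM in CA1. Within both groups the libraries with the most B2m, culture replicate 2 and CA1 replicate 1, were also those with the largest microglia sums, and the part of microglia was not tested.

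None of 43 ribosomal protein genes (median 0.07), 36 nuclear genes of the respiratory chain (median 0.29) and 13 mitochondrial genes (median 0.63) was called with all 6 libraries (edgeR), with 2, 10 and 0 genes at an unadjusted p below 0.05. DESeq2 called 1, 0 and 0 of them and limma-voom called 0, 0 and 0. Without culture replicate 2, 9 of 13 mitochondrial genes were called higher in CA1 (median 1.26), and that library had the largest mitochondrial share of the 3 cultures. When scaled to the pan-neuronal genes the 3 medians changed sign, to -0.65, -0.32 and -0.38, against -0.71 for all genes under that scaling, and 2 ribosomal protein genes were called higher in culture. Nuclear RNAs scattered among the cultures: Malat1 stood at 2385, 1222 and 207 CPM in culture and 258, 946 and 485 CPM in CA1, and Meg3 at 4136, 1037 and 134 CPM in culture and 567, 2287 and 1281 CPM in CA1, lowest in culture replicate 3 in each case.

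Several of the lowest p-values belonged to genes outside the lists. Slc30a3, the vesicular zinc transporter ZnT3, stood at 10.6, 9.92 and 9.04 CPM in culture and 96.4, 101 and 86.6 CPM in CA1 (log2 difference 3.27 ± 0.21, adjusted p = 0.00023), and Rasl10a, a Ras-like GTPase, at 4.18, 4.12 and 4.67 CPM in culture and 87.1, 76.9 and 53.8 CPM in CA1 (log2 difference 4.07 ± 0.27, adjusted p = 0.00023). Vwf, the clotting factor of vessel walls, stood at 1.3, 1.29 and 0.911 CPM in culture and 33.7, 30.3 and 26.1 CPM in CA1. Higher in culture were St8sia2, the polysialyltransferase of the embryonic brain, at 34.6, 50.7 and 35.9 CPM in culture and 4.31, 3.04 and 2.79 CPM in CA1 (log2 difference -3.58 ± 0.29, adjusted p = 0.00059), Igfbp3, a carrier of insulin-like growth factors, at 95.3, 98.02 and 73.5 CPM in culture and 13.1, 10.05 and 9.59 CPM in CA1 (log2 difference -3.03 ± 0.24, adjusted p = 0.00053), and Eln, elastin, at 42.7, 50.3 and 61.9 CPM in culture and 7.06, 5.76 and 7.18 CPM in CA1 (log2 difference -2.95 ± 0.25, adjusted p = 0.00062). Il33, an alarmin of oligodendrocytes and astrocytes, stood at 3.15, 3.15 and 2.73 CPM in culture and 47.7, 45.9 and 122 CPM in CA1. Erdr1 had 37.1 to 88.0 CPM in culture and no count in CA1. It lies in the region that chromosomes X and Y share, and 27 unplaced gene IDs were likewise at 0 in CA1 only, as all genes of chromosomes 13 and Y were, so no reading of tissue is given for it.

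The same contrast was fitted in the 6 libraries that received the knockdown virus, which share no library with the comparison above, although the CA1 samples of both viruses may share mice and the cultures may share batches. Cultures of the same number had similar mitochondrial shares, 4.45 and 4.71% for replicate 1, 10.1 and 9.45% for replicate 2 and 2.92 and 3.37% for replicate 3 with scramble and knockdown. There 2361 of the same 15951 genes (14.8%) were called. Of the 2460 genes called with scramble, 1818 (73.9%) were called in the same direction, 0 in the opposite direction, and all kept their sign. List medians were 1.05 for mature neuron, -1.69 for immature neuron, -3.71 for cell cycle, 4.92 for myelin and -1.77 for cholesterol synthesis. In a joint fit of all 12 libraries, 0 genes had a tissue difference that depended on the virus at an adjusted p below 0.05 (edgeR), and 40 had an unadjusted p below 0.05. That is far fewer than a share of 0.05 of the 15951 genes, which a calibrated test gives without any true difference. The fit had no term for mice or batches that scramble and knockdown libraries may share. It therefore cannot show that the tissue difference was the same with both viruses.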

How the data were processed

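RNA of 6 scramble libraries was compared, 3 of cultured hippocampal neurons and 3 of adult CA1. The authors sequenced paired-end libraries and deposited, for each library, a table of read counts per gene ID with gene lengths; per the methods, reads were trimmed, aligned with STAR to a mouse genome named as release 98, and counted with StringTie, while the submitters' processing notes name the build mm9, so the build is uncertain and no coordinate was taken from the count tables. Deposited counts were used as they stand. Gene symbols came from RefSeq for 25275 of 27179 IDs and from GENCODE for 18; the 1886 unnamed IDs held 2.91% of the counts. Genes of chromosomes 13 and Y were left out, because all CA1 tables list them at 0.

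Genes with at least 10 counts in 3 libraries were fitted with edgeR 4.0.16 (quasi-likelihood, TMM, no covariate) in R 4.3.3, with Benjamini-Hochberg adjustment over 15951 genes and a log2 threshold of 1. CPM compares a gene between libraries, not genes with each other. Ratios used counts per gene length and exact permutation tests. Alternatives were other scalings, filters, tests (DESeq2 1.42.0, limma 3.58.1), a replicate term and leaving out each library. The scripts were tested on simulated data.

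The comparison, the gene lists and the members were chosen with earlier results of these data known. Some genes are members of several lists, so the counts of different lists are not separate results. Genes were named if marked in a list or ratio, if among the 3 called list members with the largest change in each direction, if among the 15 largest changes or the 10 lowest adjusted p-values in each direction; 34 list members were added after their values were seen. The fold floors cover counting error only. Some list members and 1 ratio are not reported here.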

Additional observations from a re-analysis of the deposited data

How the results depend on the processing

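The number of called genes ranged from 1175 (without CA1 replicate 3) to 2788 (without culture replicate 2) when 1 library was left out, from 661 to 1440 for genes higher in CA1 and from 514 to 1392 for genes higher in culture, against 2460, 1176 and 1284. The lists with a median of at least 1 in size numbered 19, and 18 to 22 without 1 library. Scaling to the pan-neuronal genes left 459 genes higher in CA1. That scaling moved the median of all genes from -0.05 to -0.71, and 20 of 57 list medians fell from above to below 0 with it. Relative to the median of all genes these 20 stayed above it, by 0.061 to 0.69. Among them were -0.083 for CA3 and CA2, -0.51 for Cajal-Retzius cells, -0.58 for mural cells, -0.085 for glucocorticoid response, -0.57 for complement and -0.58 for heat shock genes. The mural median was between -0.020 (without CA1 replicate 2) and 0.68 (without culture replicate 1), and the heat shock median was -0.18 in the knockdown libraries. The other tests, scalings and filters gave 1045 to 1514 genes higher in CA1 and 1103 to 1565 higher in culture.

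The replicate number of the labels did not pair CA1 libraries with culture libraries: the correlation of deviations between those of the same number was -0.24, -0.16 and 0.15. Pairing of scramble with knockdown libraries was not part of this check. With the replicate block 905 genes were called higher in CA1 and 883 higher in culture, 1788 in total. With 3 libraries a group and culture libraries that vary widely, differences of 2-fold are often not detectable, and a gene that was not called is not shown to be equal.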
